A study of Mus musculus with 36 samples.

Results

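Secreted and membrane-bound proteins of matrix turnover, encoded by 10 genes, are described across cultured macrophages and glioma cells: the matrix metalloproteinases Mmp2, Mmp8, Mmp9, Mmp12, Mmp13, Mmp14 and Mmp19 (7 genes) and the tissue inhibitors of metalloproteinases Timp1, Timp2 and Timp3 (3 genes). They were chosen by name from a count table of 29883 genes, and all 10 were found in it. The choice rests on gene names and on no measured value, but it was made with earlier results of these data known.

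Matrix metalloproteinases are zinc-dependent proteases that cut collagens, elastin, proteoglycans and many cell surface proteins. Most are made as inactive proenzymes, and the TIMP proteins block the active site of the activated enzymes. At the cell surface MMP14, a membrane-anchored protease, and TIMP2 together bind and activate the proenzyme of MMP2, so that TIMP2 both inhibits and helps to activate. In gliomas these enzymes are known for matrix remodelling at the invading edge, and macrophages are a known source of several of them.

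The data are bulk RNA-seq of cultured mouse cells. One cell type was bone-marrow derived macrophages, sorted by the dTomato reporter, and the other the tumour line PDG-Ink4a Recurrent. In its mouse model Nestin-positive progenitors are made to express PDGFB on an Ink4a/Arf knockout background, which every tumour cell group shares. Each cell type was kept alone (mono-culture) or with the other (co-culture) and collected at 0 h, which the labels name the control, or at 6 h or 24 h after myelin debris was added, which gave 12 groups of 3 libraries. The tumour cells are a single line, the strain, sex and age of the mice that gave the macrophages are not given in the labels, and nothing says whether the 0 h cultures were kept as long as the treated ones, so time in culture and myelin cannot be told apart. The libraries of a group carry the numbers 001, 002 and 003. Nothing in the labels says that they came from separate cultures or animals, so p-values cover only the spread among these libraries of a group.

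Total counts ran from 7911378 to 15319104 per library. Libraries numbered 001 stood apart from the others. In macrophages they held 0 counts of Xist, which is expressed from the inactive X chromosome of females, against 535 to 1236 CPM (counts scaled to the library total) in the others. They held 64.7 to 80.0 CPM of the Y-linked Ddx3y, which was at 0 in mono-culture libraries 002 and 003, so the macrophages of 001 did not come from the same mice as the others. The transcript CT010467.1 took up to 17.4% of the counts of a library numbered 001. All 12 macrophage markers were detected in the macrophages, with a summed level of 14560 to 22284 CPM. Of 12 glioma markers 11 were in the table, with a summed level of 1742 to 4117 CPM in tumour cell libraries and 536 to 1350 CPM in macrophage libraries. Cd44 (580 to 2617 CPM), Vcan (515 to 1206), Cspg4 (373 to 938), Pdgfra (108 to 186), Nes (8.46 to 41.9) and Sox2 (14.7 to 24.8) were present in every tumour cell library. Fabp7, Gfap, Sox10 and Ptprz1 stood at no more than 0.401 CPM there, and Olig1 was at 0. Macrophages also had Cd44 (488 to 1134 CPM), Nes (24.0 to 87.6) and Fabp7 (3.56 to 23.6). The fibroblast collagen gene Col1a1 ranged from 6952 to 12454 CPM in tumour cell libraries, and the line is called tumour cells here as the labels do.

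Macrophages sorted from co-culture also held tumour cell transcripts. Judged by the median over 50 markers, tumour cell RNA made up 2.25% ± 1.11 of the 0 h libraries (SD, n = 3), 1.90% ± 1.25 of those at 6 h and 4.70% ± 0.05 of those at 24 h, and at most 0.0637% in any mono-culture library. Macrophage RNA in tumour cells averaged 1.38%, 1.11% and 1.15% in co-culture at 0 h, 6 h and 24 h. In mono-culture it averaged 0.281%, 0.867% and 1.30%, up to 2.27% in a library, although no macrophages were named there. It stood in libraries 002 and 003, and in each of the 6 libraries numbered 001 it was at most 0.0509%. With 20 markers in place of 50 these means were 0.622%, 0.648% and 0.461% in co-culture and 0.121%, 0.343% and 0.472% in mono-culture. Xist did not follow these shares closely. Macrophage libraries 002 and 003 had at least 535 CPM of it. Tumour cell libraries 002 and 003 had at most 0.0793 CPM when kept alone, and between 0.151 and 1.04 CPM beside macrophages. Tumour cell libraries numbered 001 reached 0.991 CPM, although macrophages of that number had none. The source of macrophage RNA in mono-culture was not tested, nor whether it matched the RNA of the macrophage libraries. In bulk RNA, fewer cells of a type and less RNA per cell cannot be told apart.

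Of the metalloproteinases 3 lie in a cluster on mouse chromosome 9 of mm10, all on the plus strand: Mmp13 at chr9:7272514-7283331, Mmp12 at chr9:7344381-7369499 and Mmp8 at chr9:7558456-7568485. The other genes are spread over the genome: Mmp2 at chr8:92827291-92853420, Mmp9 at chr2:164940780-164955850, Mmp14 at chr14:54431612-54445364, Mmp19 at chr10:128790910-128800824, Timp1 at chrX:20870166-20874735, Timp2 at chr11:118301069-118355740 on the minus strand and Timp3 at chr10:86300372-86349506. Some of them overlap other genes, and no source used here states the strand setting of the counting. Mmp19 overlaps Tmem198b on the opposite strand (up to 813 counts in a library), Timp1 overlaps Syn1 (up to 230), Timp3 overlaps Syn3 (up to 274) and Timp2 overlaps Cep295nl (up to 361), so reads shared with these neighbours make the values of the 4 genes less certain. Mmp12 overlaps Mmp1b, which had at most 4 counts in a library.

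Promoter sequences from RefSeq (GRCm38.p6) were matched for 7 of the 10 genes, at 8 start sites. They were searched on both strands, over the 250 bases before the start, for the AP-1 motif TGANTCA, through which Fos and Jun proteins act on several metalloproteinase genes, and for TATAAA. The AP-1 letters were present at 2 of the 8 start sites, the second start of Mmp12 and the start of Mmp13, and in 6.75% of 32851 mouse promoters. TATAAA was present at 1 start site, that of Mmp13, and in 12.4% of promoters. These neighbouring promoters are shown because the macrophage level of Mmp12 differed between cultures while that of Mmp13 did not pass the test. Capitals mark the AP-1 letters in both, 44 and 35 bases before the start, and the TATA letters in Mmp13, 16 bases before it. The Mmp12 window is chr9:7347124-7347373 on the plus strand, which lies inside the annotated gene, and the Mmp13 window is chr9:7272264-7272513 on the plus strand. A match describes the letters only.
Mmp12: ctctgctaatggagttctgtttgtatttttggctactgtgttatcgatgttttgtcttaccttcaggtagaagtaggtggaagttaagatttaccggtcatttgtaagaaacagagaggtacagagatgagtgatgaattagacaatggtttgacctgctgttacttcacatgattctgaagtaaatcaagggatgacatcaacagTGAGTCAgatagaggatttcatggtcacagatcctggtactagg
Mmp13: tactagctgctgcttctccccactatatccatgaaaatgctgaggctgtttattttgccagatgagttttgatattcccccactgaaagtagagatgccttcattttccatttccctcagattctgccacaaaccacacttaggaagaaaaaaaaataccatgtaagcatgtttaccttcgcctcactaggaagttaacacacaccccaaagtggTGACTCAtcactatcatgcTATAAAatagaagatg

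The 2 cell types expressed different members of the family. In mono-culture at 0 h macrophages had 4 metalloproteinases at higher levels than tumour cells, Mmp8, Mmp9, Mmp12 and Mmp13, and tumour cells had Mmp2, Mmp14, Timp1, Timp2 and Timp3 at higher levels. These were 9 of the 10 genes, against 70.0% of the 14776 genes tested with edgeR's quasi-likelihood test (Benjamini-Hochberg adjusted p under 0.05, the threshold for every call below). All 10 genes were tested in that fit of the 36 libraries. Mmp2, Mmp8 and Mmp9 are among the 9 but would not have passed the filter on low counts in mono-culture of the cell type with less, so their levels are given with no test.

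Mmp12, macrophage elastase, stood far above the others in macrophages. Its level was 5250, 5518 and 5923 CPM in the mono-culture macrophage libraries at 0 h and 0.0941, 6.90 and 9.20 CPM in the tumour cell libraries. The groups did not overlap, and the log2 difference was 9.99 ± 2.03 (SE; adjusted p = 0.000106). Mmp8, neutrophil collagenase, had 51.5, 42.5 and 40.3 CPM in macrophages, and 3 counts in all in the 3 tumour cell libraries. That is a ratio of 506 with a 95% counting interval of 173 to 2457. Mmp13, collagenase 3, had 33.0, 33.1 and 36.0 CPM in macrophages and 0.0941, 0.397 and 0.873 CPM in tumour cells (log2 difference 6.14 ± 0.64, adjusted p = 2.11e-09). Mmp9, gelatinase B, was low even in macrophages, at 1.91, 3.44 and 5.88 CPM, and at 0.282, 0 and 0.0793 CPM in tumour cells, again without overlap. Neutrophils also make MMP8 and MMP9. Of 10 neutrophil markers 9 had counts in these macrophage libraries, with a summed level of 8.72 to 39.3 CPM, and Ly6g was at 0.

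Mmp2, gelatinase A, was a tumour cell transcript. The tumour cell libraries had 152, 257 and 249 CPM at 0 h, and the macrophage libraries had 3 counts in all, a ratio of 2635 with a 95% counting interval of 901 to 12782. Mmp14 had 262, 278 and 275 CPM in tumour cells and 2.86, 3.23 and 6.99 CPM in macrophages, a log2 difference of -5.93 ± 0.45 (macrophages minus tumour cells, adjusted p = 4.11e-12). Both members of the surface activation complex thus stood higher in the tumour line. All 3 inhibitors did so too. Timp1 had 310, 907 and 908 CPM in tumour cells and 2.18, 2.41 and 2.62 CPM in macrophages (-8.19 ± 0.83, adjusted p = 1.76e-09). Timp3, the inhibitor that binds to the matrix, had 2525, 3612 and 3809 CPM against 0.272, 0.275 and 2.23 CPM (-11.72 ± 0.79, adjusted p = 4.58e-13). Timp2 was the inhibitor that macrophages also had in quantity. It stood at 213, 186 and 226 CPM in macrophages and 3593, 5641 and 5523 CPM in tumour cells (-4.56 ± 0.26, adjusted p = 5.92e-15). Mmp19 was the member with similar levels: 73.0, 55.7 and 53.1 CPM in macrophages and 35.9, 49.9 and 43.7 CPM in tumour cells. These groups did not overlap, and the log2 difference of 0.48 ± 0.23 did not pass the test (adjusted p = 0.0603).

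Levels of different genes were compared per kilobase of exon. In mono-culture macrophages at 0 h the order was Mmp12 with 769 CPM per kb, Timp2 with 53.5, Mmp8 with 18.5, Mmp19 with 17.2 and Mmp13 with 12.7. The libraries of Mmp8 (16.6 to 21.2) and Mmp19 (15.0 to 20.7) overlapped, so these neighbours in the order do not differ beyond their spread. Timp1 with 2.71, Mmp9 with 1.06, Mmp14 with 0.732, Timp3 with 0.113 and Mmp2 with 0.0236 CPM per kb made up the lower part, where Mmp9 (0.539 to 1.66) and Mmp14 (0.480 to 1.17) overlapped. In tumour cells the inhibitors led: Timp2 with 1263, Timp1 with 798 and Timp3 with 407 CPM per kb. Timp1 ranged from 349 to 1023 and overlapped both other inhibitors. Mmp2 with 65.0, Mmp14 with 45.6 and Mmp19 with 12.2 followed, and Mmp12 stood at 0.746 CPM per kb.

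**Figure D1:**
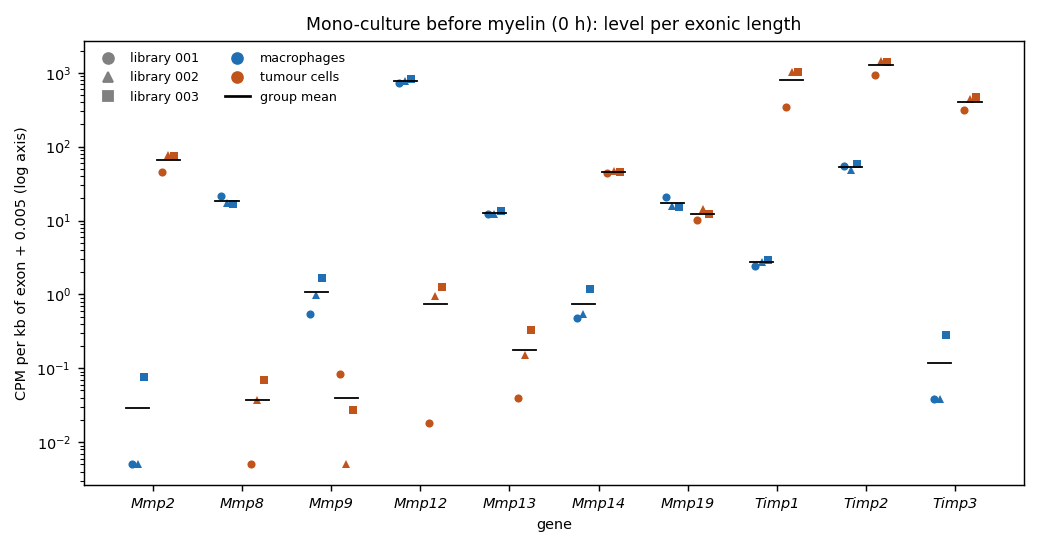
Level of the 10 genes per kilobase of exon in mono-culture at 0 h, on a log axis; each point is a library (blue, macrophages; orange, tumour cells; marker shape, library number) and each line a group mean. Mmp12 leads in macrophages at 769 CPM per kb and Timp2 in tumour cells at 1263, and Mmp19 stands at similar levels in both.

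After 24 h with myelin, 2 of the 10 genes rose in mono-cultured macrophages. Of the 13165 genes tested 15.2% were called in either direction, 996 of them higher. All 10 genes passed the filter in macrophages, Mmp2 only through its level in co-culture and Timp3 in mono-culture only through the libraries numbered 003. Timp2 stood at 213, 186 and 226 CPM at 0 h, 242, 223 and 331 CPM at 6 h and 360, 323 and 514 CPM at 24 h. The 24 h libraries were all above those of 0 h, and the rise of 0.90 ± 0.19 on the log2 scale passed the test (adjusted p = 0.00649). It also rose in co-culture, from 295, 407 and 420 CPM at 0 h to 367, 514 and 443 CPM at 6 h and 544, 762 and 765 CPM at 24 h (0.83 ± 0.19, adjusted p = 0.0109). Timp2 was the only member called there, against 11.4% of genes. The share of tumour cell RNA in these macrophages was 4.70% at 24 h and 2.25% at 0 h, and its part in the co-culture rise is taken up below.

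Mmp19, which cuts basement membrane proteins, rose in mono-culture. It stood at 73.0, 55.7 and 53.1 CPM at 0 h, 91.9, 60.2 and 70.8 CPM at 6 h and 178, 69.0 and 126 CPM at 24 h. The 24 h libraries differed among themselves, and library 002 at 24 h lay below library 001 at 0 h, so the groups overlapped. The change was 1.01 ± 0.27 (adjusted p = 0.0228). Without library 001 of 24 h it was 0.60 (adjusted p = 0.142), and without library 002 or 003 of 0 h or library 003 of 24 h the adjusted p was 0.103, 0.0973 and 0.0642. In co-culture Mmp19 stood at 68.8, 69.8 and 85.5 CPM at 0 h and at 123, 93.8 and 112 CPM at 24 h. Those groups did not overlap, and the change of 0.50 ± 0.27 did not pass the test (adjusted p = 0.25).

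Mmp9 was lower at 24 h than at 0 h in 5 of 6 same-numbered pairs. In mono-culture it stood at 1.91, 3.44 and 5.88 CPM at 0 h and at 0.495, 0.872 and 2.35 CPM at 24 h, and in co-culture at 0.324, 1.42 and 4.57 CPM and at 0.394, 0 and 1.05 CPM. Library 001 of co-culture was the exception. The groups overlapped, and the changes of -1.63 ± 0.91 and -2.18 ± 1.03 did not pass the test (adjusted p = 0.254 and 0.184). In a fit that pairs libraries of the same number (replicate block), Mmp9 fell in both cultures, by 1.72 ± 0.43 (adjusted p = 0.009) and by 2.13 ± 0.53 (adjusted p = 0.0107). Under the block 3 members were called in mono-culture, against 22.2% of genes, and 2 in co-culture, against 19.7% of genes. The neutrophil markers moved with Mmp9: their summed level was 2.47 to 12.5 CPM alone and 2.76 to 9.43 CPM beside tumour cells at 24 h, against 8.72 to 39.3 and 7.35 to 39.1 CPM at 0 h. Their part in the result was not tested.

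Over all 3 libraries the other metalloproteinases of macrophages did not pass the test with myelin in either culture. Mmp12 in mono-culture ranged from 4744 to 6161 CPM over all 9 libraries, with a change of -0.08 at 24 h. In co-culture it stood at 1888, 3085 and 4668 CPM at 0 h and at 1197, 2417 and 2821 CPM at 24 h, lower in each same-numbered pair, with a change of -0.63 ± 0.30 (adjusted p = 0.191). Mmp13 stood at 33.0, 33.1 and 36.0 CPM at 0 h and at 25.3, 27.2 and 19.8 CPM at 24 h in mono-culture. These groups did not overlap, and the adjusted p was 0.14. Mmp8 had 51.5, 42.5 and 40.3 CPM at 0 h and 58.5, 12.2 and 24.3 CPM at 24 h, with library 001 above and the others below their 0 h values. In a fit of libraries 002 and 003 alone, 4 members were called at 24 h in mono-culture, against 17.4% of genes, and 3 in co-culture, against 15.4%. Mmp8 (-1.23 ± 0.34, adjusted p = 0.0411) and Mmp13 (-0.57 ± 0.18, adjusted p = 0.0489) were lower there in mono-culture, and Mmp19 (0.81 ± 0.23) and Timp2 (0.99 ± 0.22) higher. In co-culture Mmp12 (-0.59 ± 0.17, adjusted p = 0.032) and Mmp13 (-0.62 ± 0.18, adjusted p = 0.0357) were lower and Timp2 (0.86 ± 0.22) higher. At 6 h no member was called in mono-culture (2.15% of genes called) or in co-culture (0.213% of genes called), and no member had an unadjusted p under 0.05 in either. DESeq2 also called no member at 6 h.

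**Figure D2:**
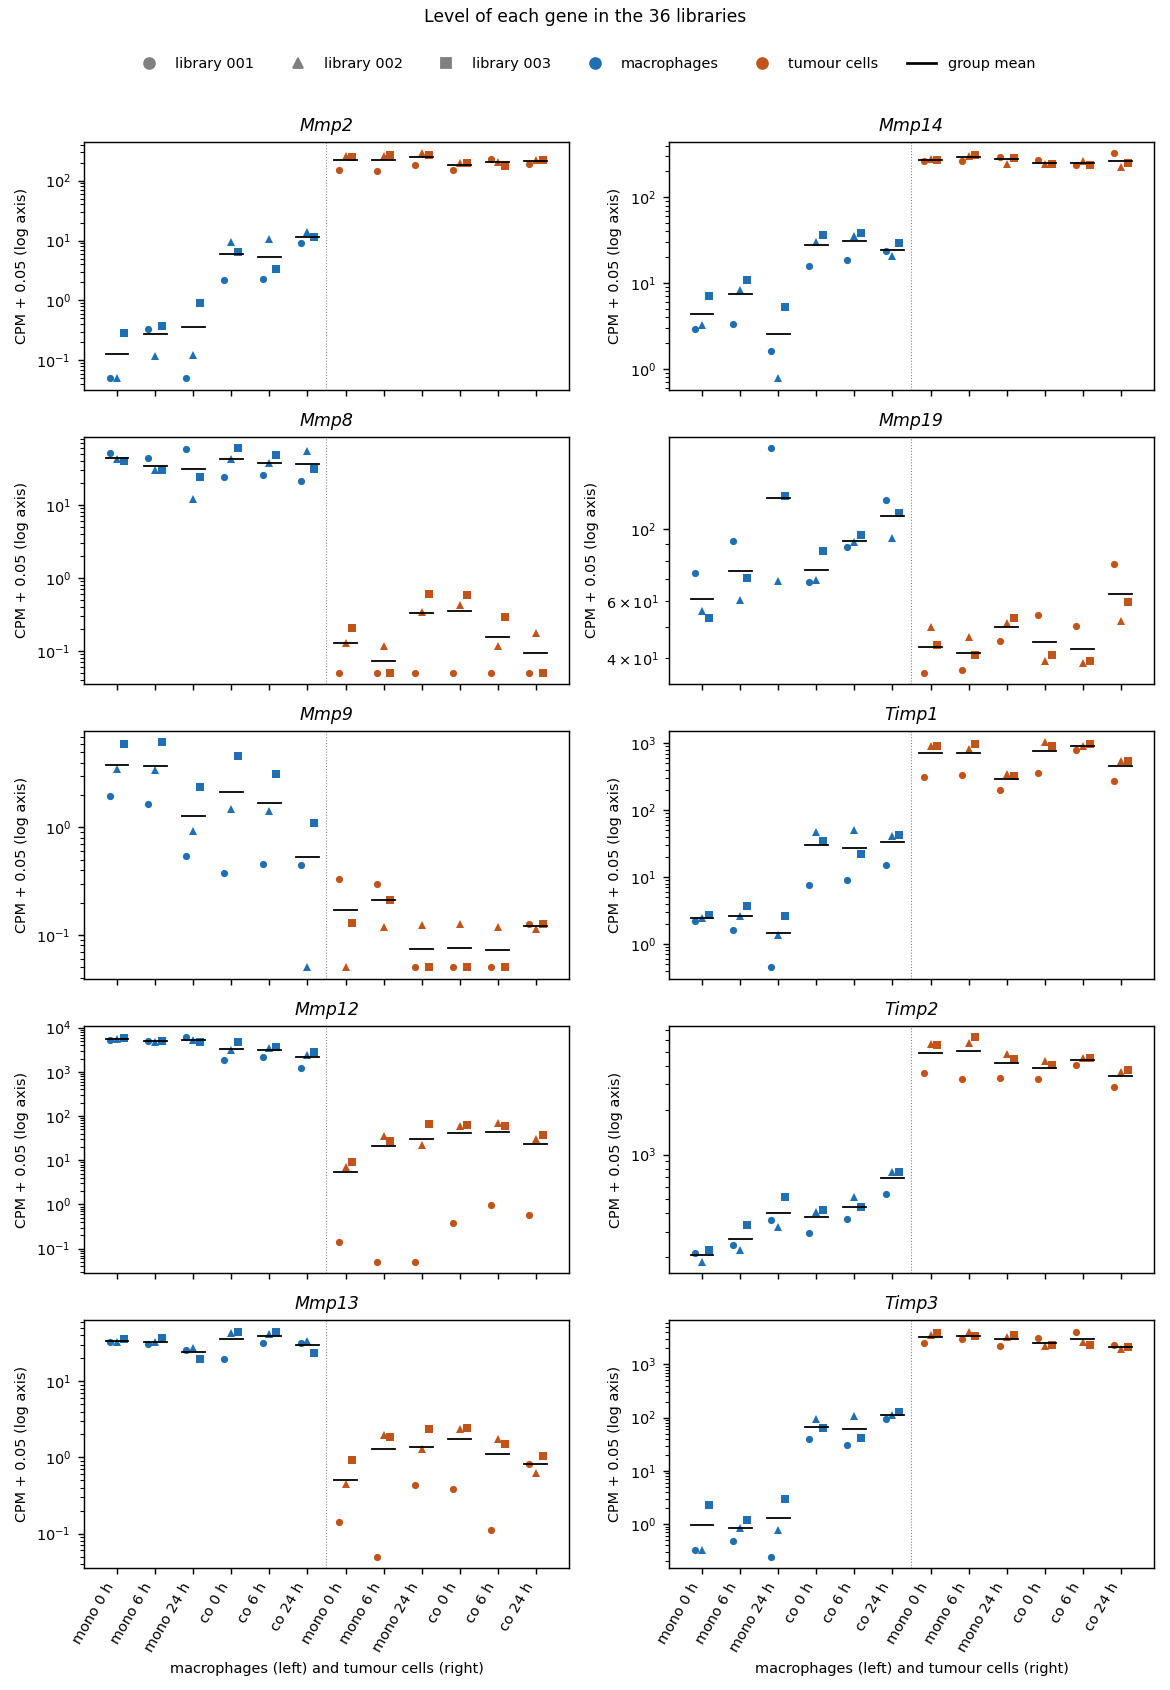
Level of each of the 10 genes in all 36 libraries (CPM plus 0.05, log axis) by culture and hours after myelin, macrophages in blue on the left of each panel and tumour cells in orange on the right; marker shape gives the library number and black lines are group means. Timp2 in mono-culture macrophages lies at 186 to 226 CPM at 0 h and 323 to 514 CPM at 24 h, and Mmp12 in tumour cells is near 0 in libraries numbered 001.

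Co-culture went with larger differences in macrophages than myelin did. At 0 h 5 of the 10 genes were higher in co-cultured than in mono-cultured macrophages, against 13.7% of genes called. At 6 h 4 were higher, against 9.94%, and at 24 h 5 were higher and 1 was lower, against 28.0%. The genes that were higher, Mmp2, Mmp14, Timp1, Timp2 and Timp3, are the 5 that tumour cells expressed at higher levels than macrophages. Mmp2, counted at each time, passed the filter only through co-culture, so its part in these counts is no evidence of a difference.

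Alone, macrophages had 2.86, 3.23 and 6.99 CPM of Mmp14 at 0 h, and beside tumour cells 15.9, 30.0 and 36.6 CPM. At 6 h it had 3.31, 8.26 and 10.8 against 18.4, 35.2 and 37.9 CPM, and at 24 h 1.58, 0.727 and 5.22 against 23.6, 20.5 and 28.9 CPM. Every co-culture library was above every mono-culture library at the same time. The log2 differences were 2.53 ± 0.51 (adjusted p = 0.00382), 1.88 ± 0.48 (adjusted p = 0.0207) and 3.18 ± 0.55 (adjusted p = 0.000623). The call at 6 h was lost without mono-culture library 001 or 002 or co-culture library 002 or 003, with differences of 1.62, 1.93, 1.78 and 1.69. Mmp2 had 2.16, 9.48 and 6.42 CPM in co-culture at 0 h, 2.23, 10.4 and 3.32 CPM at 6 h and 9.16, 13.8 and 11.5 CPM at 24 h, and at most 0.87 CPM in any mono-culture library. At 0 h, where mono-culture had 3 counts in all, the ratio was 72.8 with a 95% counting interval of 24.6 to 356. The log2 difference was 4.49 at 6 h and 5.04 at 24 h, given as a description, since Mmp2 passed the filter only through co-culture.

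Among the inhibitors Timp3 differed most between the cultures. It had 38.9, 95.0 and 64.0 CPM in co-culture at 0 h, 31.1, 108 and 42.0 CPM at 6 h and 93.0, 112 and 125 CPM at 24 h, and at most 2.87 CPM in any mono-culture library. The log2 differences were 5.97 ± 0.70, 6.02 ± 0.71 and 6.31 ± 0.66 (adjusted p = 7.82e-05, 0.000142 and 1.77e-05). Timp1 had 7.46, 47.2 and 35.1 CPM in co-culture at 0 h, 8.90, 50.6 and 22.2 CPM at 6 h and 15.0, 41.2 and 42.2 CPM at 24 h, and at most 3.67 CPM in mono-culture. Library 001 was the lowest at each time. The differences were 3.52 ± 0.74, 3.22 ± 0.73 and 4.39 ± 0.79 (adjusted p = 0.00535, 0.0106 and 0.000912), and at 6 h the call was lost without co-culture library 002 (2.45, adjusted p = 0.0523). Timp2 differed by 0.74 ± 0.19 at 0 h (adjusted p = 0.016), 0.62 ± 0.19 at 6 h (adjusted p = 0.050008) and 0.68 ± 0.19 at 24 h (adjusted p = 0.0145). Its libraries did not overlap between the cultures at any time. The call at 0 h was lost without mono-culture library 002 or co-culture library 002 or 003 (0.65, 0.69 and 0.66), and the call at 24 h without the libraries of the same names (0.54, 0.60 and 0.60).

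Mmp12 was the member called lower in co-culture. At 24 h its mono-culture libraries had 6161, 5137 and 4744 CPM, against 1197, 2417 and 2821 CPM beside tumour cells. The cultures did not overlap, and the difference was -1.45 ± 0.31 (adjusted p = 0.00281). At 0 h the values were 5250, 5518 and 5923 against 1888, 3085 and 4668 CPM, and at 6 h 5107, 4768 and 4927 against 2121, 3563 and 3659 CPM, again without overlap. The differences of -0.90 ± 0.30 and -0.79 ± 0.30 did not pass the test (adjusted p = 0.0633 and 0.126), except at 0 h without co-culture library 003 (-1.26, adjusted p = 0.0172). In the paired fit Mmp12 was lower at 0 h too (-0.95 ± 0.29, adjusted p = 0.0348), which made 6 members called, against 19.5% of genes. The summed macrophage markers ranged between 14560 and 18287 CPM alone and between 19037 and 22284 CPM beside tumour cells, and of these 12 markers 2 were called higher and 1 lower in co-culture at 0 h, 2 and 3 at 6 h and 3 and 6 at 24 h. Their median log2 difference at 24 h was -0.193, against -0.0313 for all genes, and their part in the result was not tested. Its neighbours Mmp13 and Mmp8 differed by between -0.16 and 0.18 at the 3 times, and Mmp19 by between -0.31 and 0.20. Over all 3 libraries none of them passed the test. In a fit of libraries 002 and 003 alone Mmp8 was higher in co-culture at 24 h (1.17 ± 0.34, adjusted p = 0.0402). Library 001, left out there, had 58.5 CPM of Mmp8 alone and 21.7 CPM beside tumour cells. In that fit Mmp12 was lower at 0 h (-0.67 ± 0.17, adjusted p = 0.0195), and Mmp14 at 6 h did not pass the test (1.88 ± 0.48, adjusted p = 0.0515).

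**Figure D3:**
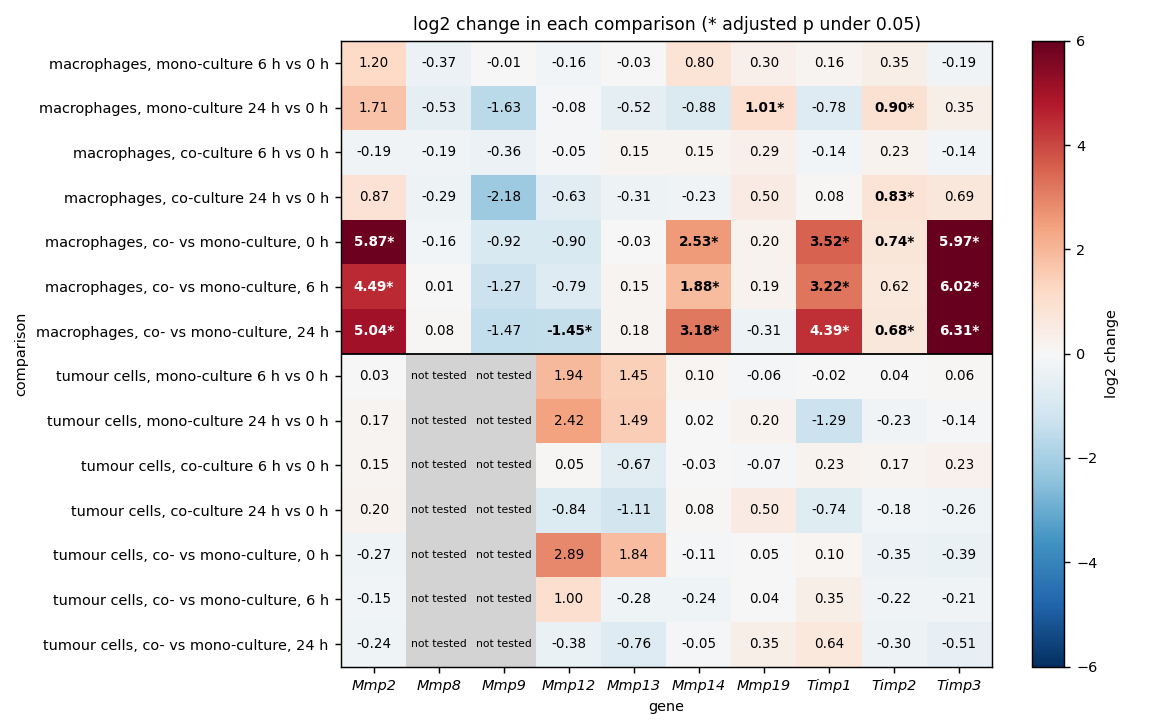
log2 change of each gene (columns) in each comparison (rows), with the value printed and an asterisk where the adjusted p was under 0.05; red is higher and blue lower in the group named first, the colours saturate at 6, and grey marks genes not tested in tumour cells. The values are from the fit without the replicate block. In it the called values are in the macrophage rows, and no tumour cell value carries an asterisk. Mmp2 passed the filter in macrophages only through co-culture, so its asterisks between the cultures are no evidence of a difference.

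The level that tumour cell RNA would carry into the co-cultured macrophages was computed as the share of tumour cell RNA in a library multiplied by the mean level of the gene in co-cultured tumour cells of the same time. For Mmp2 the carried level averaged 4.11 of a measured 6.02 CPM at 0 h, 3.86 of 5.32 at 6 h and 9.86 of 11.5 at 24 h. For Timp3 it averaged 57.1 of 66.0, 56.8 of 60.3 and 99.2 of 110 CPM. With the share from 50 markers, most of the level of both genes was thus within what the tumour cell RNA would carry. For Timp1 it averaged 17.1 of 29.9, 17.0 of 27.2 and 21.2 of 32.8 CPM, and in library 001 it exceeded the measured level at 0 h and 24 h. That excess rests on tumour cell means of 759 and 452 CPM, and co-cultured tumour cell library 001 had only 355 and 274 CPM.

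With the share from 50 markers Mmp14 and Timp2 stood above their carried level in every co-culture library. For Mmp14 the carried level averaged 5.69 of 27.5 CPM at 0 h, 4.70 of 30.5 at 6 h and 12.5 of 24.3 at 24 h. The rest was 12.6 to 31.5, 16.0 to 34.5 and 7.98 to 16.3 CPM, and so above the highest mono-culture library of each time (6.99, 10.8 and 5.22 CPM). For Timp2 the carried level averaged 87.1 of 374, 83.0 of 442 and 160 of 690 CPM. The rest was 245 to 343 CPM at 0 h, above the mono-culture libraries (186 to 226 CPM). It was 324 to 383 CPM at 6 h and overlapped mono-culture there (223 to 331 CPM). At 24 h it was 386 to 603 CPM and again overlapped mono-culture (323 to 514 CPM). The rest of Timp2 at 24 h was also above that at 0 h without overlap. The share depends on the markers. The carried level was also computed with 20 markers and with the fixed list of glioma genes, a choice made after seeing the data. With 20 markers the rest of Mmp14 at all 3 times and of Timp2 at 0 h again lay above every mono-culture library. The fixed list gave shares of 6.73%, 5.25% and 8.35% at the 3 times, but also means of 0.894% to 1.10% in macrophages kept without tumour cells. It holds genes that macrophages also had: Cd44, Nes, and Fabp7, which stood at 3.56 to 23.6 CPM in macrophages and at most 0.401 CPM in tumour cells. Ddx3y was at 0 in mono-culture macrophage libraries 002 and 003. It had 2.59 to 5.86 CPM in co-culture macrophage libraries 002 and 003, and 86.5 to 113 CPM in co-cultured tumour cells. With the fixed list the rest of Mmp14 was 0.538 to 22.2, 5.26 to 32.3 and -3.21 to 5.98 CPM, so that it overlapped mono-culture at each time and library 002 at 24 h fell below its carried level. The rest of Timp2 with the fixed list was 59.7 to 201 CPM at 0 h, 135 to 344 CPM at 6 h and 289 to 471 CPM at 24 h. At 0 h it was no longer above mono-culture, and the rest at 24 h was again above that at 0 h without overlap. With it the carried level of Mmp2, Timp3 and Timp1 averaged more than their measured level at each time. The carried part was not removed before any test.

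**Figure D4:**
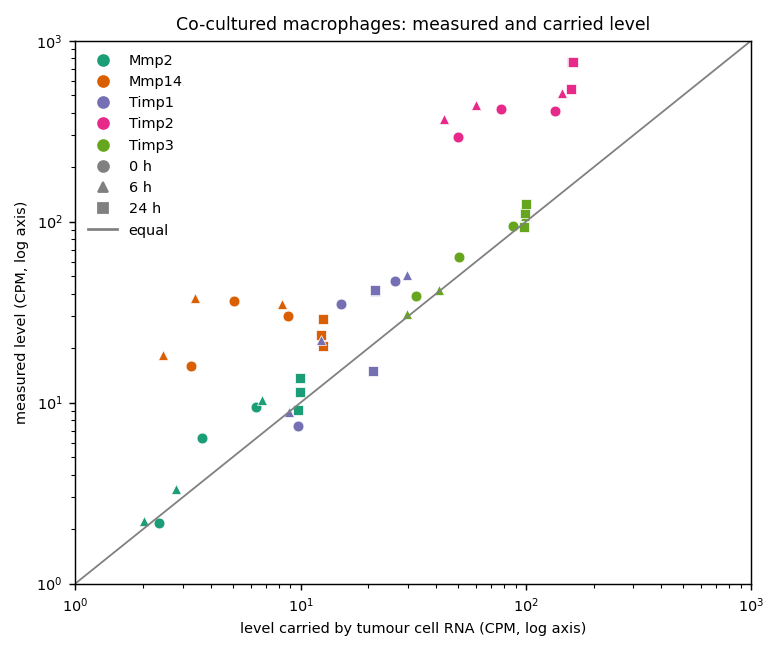
Measured level of 5 genes in the 9 co-culture macrophage libraries (vertical) against the level carried by tumour cell RNA (horizontal), both in CPM on log axes; colour gives the gene, marker shape the time, and the grey line marks equal values; the share is that from 50 markers. Timp3 lies along the line, and all points of Mmp14 and Timp2 lie above it.

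In tumour cells, in the fit of all 3 libraries without the replicate block, no member was called in any of the 7 comparisons with 0 h or between cultures, among the 8 genes tested. Mmp8 and Mmp9, with group means of at most 0.305 CPM, did not pass the filter. The share of all 13603 genes called was 0.00735% at 6 h and 10.5% at 24 h in mono-culture, 0.0147% and 0.787% in co-culture, and 0, 0 and 0.0809% between the cultures at 0 h, 6 h and 24 h. For the cultures at 0 h and at 6 h 698 and 543 genes had an unadjusted p under 0.05, none of them a member, and DESeq2 called 3 and 0 genes. The paired fit, whose values are given below, called Timp1 and Mmp12 at 24 h in mono-culture and Mmp12 between the cultures at 0 h.

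Timp1, a secreted inhibitor that also has growth factor activity, had its lowest tumour cell levels at 24 h. Without macrophages it stood at 310, 907 and 908 CPM at 0 h, 334, 813 and 961 CPM at 6 h and 200, 341 and 328 CPM at 24 h. Library 001 was the lowest at each time, so the groups overlapped, and each library was lower at 24 h than its same-numbered library at 0 h. The change of -1.29 ± 0.48 did not pass the test (adjusted p = 0.0981), did so without library 001 of 0 h (-1.65, adjusted p = 0.0455), and Timp1 fell in the paired fit, by 1.19 ± 0.22 (adjusted p = 0.00168). In co-culture it stood at 355, 1026 and 895 CPM at 0 h, 802, 916 and 965 CPM at 6 h and 274, 543 and 539 CPM at 24 h, with a change of -0.74 at 24 h (adjusted p = 0.507), lower at 24 h in 3 of 3 same-numbered pairs. In a fit of libraries 002 and 003 alone Timp1 fell at 24 h in mono-culture (-1.45 ± 0.08, adjusted p = 1.03e-09) and in co-culture (-0.82 ± 0.08, adjusted p = 1.98e-06), was higher in co-culture at 24 h (0.70 ± 0.08, adjusted p = 1.13e-05), and its 24 h change differed between the cultures (0.63 ± 0.12, adjusted p = 0.00579). Wherever it is used, that fit leaves out the libraries numbered 001. Its SE and p-values cover only the spread within libraries 002 and 003.

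Between the cultures, libraries 002 and 003 of tumour cells gave lower Timp2, Timp3 and Mmp2 beside macrophages, and library 001 did not do so throughout. Timp3 had 3612 and 3809 CPM alone against 2165 and 2285 CPM beside macrophages at 0 h, 3957 and 3442 against 2576 and 2290 CPM at 6 h, and 3294 and 3516 against 1930 and 2123 CPM at 24 h. Library 001 went the other way at 0 h and 6 h, from 2525 and 2966 CPM alone to 3166 and 4125 CPM beside macrophages. At 24 h it was about equal, with 2245 CPM alone and 2276 CPM beside macrophages. Over all 3 libraries the differences were -0.39, -0.21 and -0.51 and did not pass the test (lowest adjusted p = 0.358, at 24 h). In a fit of libraries 002 and 003 alone they were -0.74 ± 0.09, -0.61 ± 0.09 and -0.74 ± 0.09 (adjusted p = 6.72e-05, 0.000453 and 1.23e-05). That fit leaves out library 001, which went the other way at 0 h and 6 h, so its values do not stand for all 3 libraries.

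Timp2 in libraries 002 and 003 had 5641 and 5523 CPM alone against 4333 and 4037 CPM beside macrophages at 0 h, 5698 and 6290 against 4527 and 4556 CPM at 6 h, and 4802 and 4466 against 3615 and 3741 CPM at 24 h. It was lower in co-culture in that fit, by log2 differences of -0.42 ± 0.08, -0.40 ± 0.08 and -0.32 ± 0.08 (adjusted p = 0.00221, 0.00413 and 0.00537). Library 001 had 3593, 3245 and 3302 CPM alone against 3237, 4051 and 2865 CPM, higher in co-culture at 6 h. Mmp2 had 257 and 249 against 198 and 199 CPM at 0 h, 258 and 269 against 207 and 175 CPM at 6 h, and 285 and 273 against 219 and 219 CPM at 24 h. Its log2 differences there were -0.35 ± 0.07, -0.47 ± 0.07 and -0.34 ± 0.07 (adjusted p = 0.00338, 0.00075 and 0.00172). Library 001 had 152 against 151 CPM of Mmp2 at 0 h, 147 against 229 at 6 h and 184 against 190 at 24 h, about equal at 0 h and 24 h and higher in co-culture at 6 h. Within libraries 002 and 003 5, 4 and 5 members were called between the cultures at 0 h, 6 h and 24 h, against 15.8%, 9.16% and 24.1% of genes, and 4 and 3 with myelin at 24 h in mono- and co-culture, against 35.9% and 22.6%. Besides these 3 genes and Timp1, Mmp12 (2.91 ± 0.57, adjusted p = 0.0212) was higher in co-culture at 0 h and Mmp14 lower at 6 h (-0.28 ± 0.08, adjusted p = 0.0319), and with myelin at 24 h in mono-culture Mmp12 rose (2.45 ± 0.58, adjusted p = 0.0184) and Timp2 fell (-0.28 ± 0.08, adjusted p = 0.0105). The libraries 001 and the others differ in more than the culture, and what sets them apart was not tested.

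Mmp13 was low in tumour cells. It had 0.0941, 0.397 and 0.873 CPM at 0 h, 0, 1.92 and 1.80 CPM at 6 h and 0.388, 1.25 and 2.31 CPM at 24 h alone, and 0.332, 2.34 and 2.38, 0.0619, 1.72 and 1.44, and 0.773, 0.576 and 0.990 CPM beside macrophages. In libraries 002 and 003 it was thus higher in co-culture at 0 h and lower at 24 h. That fit gave 1.87 ± 0.42 (adjusted p = 0.00732) and -1.20 ± 0.41 (adjusted p = 0.0421), a rise in mono-culture at 6 h (1.53 ± 0.44, adjusted p = 0.0461, the 1 member called, against 6.18% of genes) and 24 h (1.47 ± 0.44, adjusted p = 0.0148), and a fall in co-culture at 24 h (-1.60 ± 0.40, adjusted p = 0.00756). Mmp13 stood higher in macrophages than in tumour cells, and macrophage RNA was present in libraries 002 and 003. In the libraries numbered 001, where macrophage RNA was at most 0.0509%, Mmp13 ranged from 0 to 0.773 CPM. With the larger set of markers, the Mmp13 level that macrophage RNA would carry averaged below the measured level in every group. It was 0.0956 of 0.455, 0.287 of 1.24 and 0.314 of 1.31 CPM alone at 0 h, 6 h and 24 h. Beside macrophages it was 0.492 of 1.68, 0.441 of 1.08 and 0.341 of 0.780 CPM. The share of macrophage RNA was higher with the fixed list of macrophage genes, and the carried level still averaged below the measured level in every group. These carried levels take the macrophage RNA to be like that of the macrophage libraries, which was not tested. The part of macrophage RNA in the result was not tested.

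Mmp14 stood between 225 and 324 CPM over all 18 tumour cell libraries. Mmp19 had 54.3, 39.0 and 40.7 CPM at 0 h and 78.1, 51.9 and 59.5 CPM at 24 h in co-culture, higher in each same-numbered pair, with a change of 0.50 ± 0.17 (adjusted p = 0.203). Within libraries 002 and 003 Mmp19 rose by 0.49 ± 0.09 (adjusted p = 0.000869). Mmp12 in tumour cells moved with the macrophage RNA in the library. It had at most 0.929 CPM in the 6 libraries numbered 001, where macrophage RNA was at most 0.0509%, and 6.90 to 68.0 CPM in the other 12. In the paired fit Mmp12 rose at 24 h in mono-culture (2.36 ± 0.41, adjusted p = 0.0012), was higher in co-culture at 0 h (2.91 ± 0.41, adjusted p = 0.00893), and its 24 h change differed between the cultures (-3.17 ± 0.55, adjusted p = 0.0441). Under the block 2 members, Timp1 and Mmp12, were called at 24 h in mono-culture against 27.9% of genes, 1 between the cultures at 0 h against 1.19%, and 1 in the difference of the 24 h changes against 0.206%. With the share from 50 markers, the level that macrophage RNA would carry averaged 44.5 CPM of Mmp12 against 40.8 CPM measured in co-culture at 0 h, 34.7 against 42.6 at 6 h and 24.6 against 22.7 at 24 h. In mono-culture it was above the measured level, at 15.6 against 5.40, 42.8 against 20.9 and 69.6 against 29.6 CPM. With 20 markers it was 20.0, 20.2 and 9.89 CPM in co-culture, below the measured mean at each time, and 6.74, 16.9 and 25.3 CPM in mono-culture. With the fixed list of macrophage genes it was above the measured mean in all 6 groups. The carried levels of Mmp12 also take the macrophage RNA to be like that of the macrophage libraries, which was not tested.

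Whether myelin changed the members differently by culture or cell type was tested with interaction terms. In macrophages no member was called for the 6 h change (0% of genes called, 332 with an unadjusted p under 0.05, and 1 called by DESeq2) or the 24 h change (0.0152% of genes called). Without the replicate block no member was called in tumour cells for either change, with 0 genes called in both (111 and 496 genes with an unadjusted p under 0.05, and 0 and 1 called by DESeq2). Under the block the 24 h change of Mmp12 differed between the cultures of tumour cells, as given above. Between the cell types in mono-culture the 24 h change of 1 member differed, against 3.90% of 14776 genes. That gene was Timp2, whose change was higher in macrophages by 1.17 ± 0.32 on the log2 scale (adjusted p = 0.0374). It was higher at 24 h than at 0 h in 3 of 3 same-numbered macrophage libraries and lower in 3 of 3 tumour cell libraries. The call was lost in 8 of 12 fits that left out 1 library, namely macrophage library 002 or 003 of 0 h or 003 of 24 h, tumour cell library 002 or 003 of 0 h, or any tumour cell library of 24 h, with values from 0.92 to 1.18. In libraries 002 and 003 alone 2 members, Mmp13 (-3.07 ± 0.59, adjusted p = 0.00854) and Timp1, differed in their 24 h change between the cultures of tumour cells, against 4.45% of genes. Between the cell types 3 differed, against 13.1%: Timp2 (1.22 ± 0.24, adjusted p = 0.00198), Mmp12 (-2.74 ± 0.53, adjusted p = 0.00365) and Mmp13 (-2.09 ± 0.52, adjusted p = 0.0107). Macrophage RNA in mono-cultured tumour cells, 0.281% at 0 h and 1.30% at 24 h, moves with the Mmp12 and Mmp13 values, and its part was not tested. With these shares the Mmp13 level that macrophage RNA would carry, given above, averaged below the measured level at both times.

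Other genes of matrix turnover were followed in fixed lists. In macrophages after 24 h in mono-culture 5 of 11 cysteine cathepsins and cystatins rose and none fell, against 15.2% of all genes called, among them Ctsf, cathepsin F (1.04 ± 0.19, adjusted p = 0.00273), and Cst3, the inhibitor cystatin C (0.40 ± 0.11, adjusted p = 0.0211). The median of the list was 0.40 and that of all genes -0.00449. Of 9 genes of the plasminogen activator system, which activates several metalloproteinases, 1 rose and 2 fell. Plaur, the urokinase receptor, fell from 112 to 65.9 CPM in mono-culture (-0.79 ± 0.15, adjusted p = 0.00369) and from 153 to 86.6 CPM in co-culture (-0.87 ± 0.15, adjusted p = 0.00257). Of 9 AP-1 subunits 2 rose and 1 fell in mono-culture: Atf3 (0.47 ± 0.13, adjusted p = 0.0211), Jun (0.38 ± 0.10, adjusted p = 0.019) and Fosl2 (-0.62 ± 0.18, adjusted p = 0.0339). None of the 7 other metalloproteinases tested was called in mono-culture, where 1 of the 7 would have passed the filter. In co-culture, where 11.4% of genes were called, Mmp27 rose from 3.34 to 9.71 CPM at 24 h (1.49 ± 0.29, adjusted p = 0.00455), and was the only one of the 7 to do so.

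Between the cultures, the matrix substrates showed the most calls in macrophages. Of the 16 tested, 3 passed the filter only through co-culture. Of the 13 others 12 were higher in co-culture at 0 h, 11 at 6 h and 12 at 24 h, with none lower, against 13.7%, 9.94% and 28.0% of all genes called. Col3a1, a fibrillar collagen, averaged 0.121 CPM in mono-cultured and 87.5 CPM in co-cultured macrophages at 0 h, and 4087 CPM in mono-cultured tumour cells. Fn1, fibronectin, averaged 29.8 and 544 CPM in macrophages, and Vcan, the proteoglycan versican, 10.6 and 24.5 CPM. In mono-cultured tumour cells at 0 h Fn1 averaged 22241 CPM and Vcan 691 CPM. The level that tumour cell RNA would carry was not computed for the matrix substrates. These calls therefore cannot tell transcripts of the macrophages from tumour cell RNA. Genes near 0 in mono-cultured macrophages passed only through co-culture and are given by level alone: Mrc2, an endocytic collagen receptor (0.129 and 14.0 CPM), the membrane metalloproteinase Mmp16 (0.0229 and 2.56 CPM), Adamts2, a procollagen protease (0.284 and 4.80 CPM), and Plat, tissue plasminogen activator (0.0795 and 1.60 CPM). Mono-cultured tumour cells had 661 CPM of Mrc2, 98.3 of Mmp16, 172 of Adamts2 and 57.1 of Plat. Of the genes that passed in mono-culture, 0 of 3 ADAMTS proteases, 2 of 8 ADAM proteases and 1 of 7 plasminogen system genes were called at 0 h, all of them higher in co-culture.

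Furin, Adam9 and Ctsc were higher in co-cultured macrophages without so wide a gap in level between the cell types. Furin, the proprotein convertase that activates MMP14, averaged 126 CPM in mono-cultured and 269 CPM in co-cultured macrophages at 0 h and 126 CPM in tumour cells (1.00 ± 0.11, adjusted p = 3.43e-05). Ctsc, cathepsin C, which activates granule proteases, averaged 106 and 406 CPM, and 17.6 CPM in tumour cells (1.85 ± 0.17, adjusted p = 7.04e-06). Adam9, a membrane protease, averaged 174 and 268 CPM, and 468 CPM in tumour cells (0.52 ± 0.11, adjusted p = 0.00558). Atf3, a stress-induced AP-1 family member, was lower in co-culture, with 373 and 157 CPM (-1.35 ± 0.13, adjusted p = 7.35e-06). At 0 h 13.7% and at 24 h 28.0% of all genes were called. At 24 h 7 of 11 cathepsins and cystatins were lower in co-culture and 1 higher, Cst3 among the lower ones (-0.48 ± 0.11, adjusted p = 0.00409).

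In tumour cells at 24 h in mono-culture, 5 of 9 genes of the plasminogen activator system fell and 1 rose, against 10.5% of all genes called. Plaur averaged 39.2 CPM at 0 h and 11.1 CPM at 24 h (-1.82 ± 0.37, adjusted p = 0.00764), and Plgrkt, a plasminogen receptor, rose from 22.6 to 33.3 CPM (0.56 ± 0.12, adjusted p = 0.00786). Of 8 AP-1 subunits 2 fell: Fosl1 from 45.9 to 9.73 CPM (-2.24 ± 0.34, adjusted p = 0.00164) and Jun from 221 to 83.7 CPM (-1.40 ± 0.39, adjusted p = 0.0334). Of the matrix substrates Tnc, tenascin C, averaged 1989.7 CPM at 0 h and 545 CPM at 24 h (-1.87 ± 0.47, adjusted p = 0.0225), the 1 called of 16. Reck, a membrane-anchored inhibitor of metalloproteinases, rose from 32.4 to 62.1 CPM (0.94 ± 0.23, adjusted p = 0.0172). Adamts5 and Adamts4, aggrecan-cutting proteases, rose in both cultures, Adamts5 from 45.8 to 99.5 CPM in mono-culture (1.12 ± 0.20, adjusted p = 0.00391) and from 42.7 to 93.7 CPM in co-culture (1.14 ± 0.20, adjusted p = 0.0162). Of 11 cathepsins and cystatins 3 rose in mono-culture, Cst3 (0.79 ± 0.13, adjusted p = 0.00263), Ctso (1.16 ± 0.24, adjusted p = 0.00754) and Ctsf (0.65 ± 0.17, adjusted p = 0.0277). Adam22 rose and Adam12 and Adamts14 fell there, and in co-culture, where 0.787% of genes were called, Mmp16 (0.40 ± 0.08, adjusted p = 0.04) and Vcan (0.84 ± 0.17, adjusted p = 0.0332) rose.

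The genes whose pattern was most like that of a called member were sought over the 18 macrophage libraries, by the Pearson correlation of log2(CPM + 1) among 9068 genes. These correlations describe libraries that share the tumour cell RNA of co-culture. For Mmp2 the nearest were Bmp1 (r = 0.994), Sulf1 and Mrc2 (both 0.990). For Timp3 they were Col1a1, Serpinf1 and Col5a1 (all 0.994), and for Timp1 Oaf (0.974), Ccn4 (0.973) and Gja1 (0.972). Mmp14 and Timp2 had looser neighbours: Nxpe5 (0.947), Fads3 (0.944) and Wwc2 (0.940) for Mmp14, and Sorbs3 (0.936), Fkbp9 (0.935) and Rhod (0.933) for Timp2.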

How the data were processed

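The authors deposited a table of raw read counts per gene, 29883 genes by 36 libraries, per the file headers. The genome build is mm10 per the submitters' processing notes (aligner and counter not given in the sources used here). Per the labels' protocols, cells were sorted and libraries were made from a few nanograms of RNA by oligo-dT priming and template switching, so amplification adds to the spread. Total counts of 7911378 to 15319104 per library limit the precision of genes with few counts.

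Groups came from the sample titles. The test was that of edgeR 4.0.16, run under R 4.3.3 with limma 3.58.1 loaded (TMM, filterByExpr, robust quasi-likelihood), in 1 fit of 18 libraries per cell type (13165 genes in macrophages, 13603 in tumour cells) and 1 fit of all 36 (14776 genes), with adjustment over all genes of a comparison. SE is the absolute log2 change over the root of F. Levels are CPM with TMM factors over all libraries. Ratios against a group with at most 3 counts use CPM without TMM, and their intervals (95%, exact) cover counting error only. Exon lengths and positions are from GENCODE M21.

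The 50 markers per cell type (at least 100 CPM there, low in the other) were taken from these data. A library's share is the median of their level over that in mono-culture of their own type at 0 h. Library numbers were taken to pair libraries where every correlation of same-number residuals was over 0.1. The lowest was 0.326 in macrophages for the comparisons with 0 h and between cultures at 0 h, and 0.259 over tumour cell comparisons. It was not met in macrophages between cultures at 6 h (0.0903) and 24 h (0.054) or for the differences of the changes, nor between cell types. The pipeline was tested on simulated data. Alternatives were DESeq2 1.42.0, RLE factors, no filter, non-robust dispersions, the block, only the groups compared, libraries 002 and 003 alone, each library left out, and 20 or fixed markers for the carried level (added after seeing the data).

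The members and lists were chosen with earlier results of these data known. All 10 members are named, with up to 3 genes per list and cell type by number of calls, and the 3 most correlated genes for members called in 3 or more of 7 comparisons. Marker genes, and Tmem198b, Syn1, Syn3, Cep295nl, Mmp1b, Xist and CT010467.1, are named as checks. Mmp7, Mmp20, Adamts19, Csta1, Olig2 and Mog of the lists were not analysed here. A further gene that the rule names is not reported here.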

Additional observations from a re-analysis of the deposited data

Results flagged for a closer look

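The 24 h change of Timp2 in mono-culture differed between the cell types: macrophages rose relative to tumour cells by 1.17 ± 0.32 on the log2 scale (n = 3 libraries a group, adjusted p = 0.0374, edgeR's quasi-likelihood test of the interaction). Over all 3 libraries and without the replicate block it was the only one of the 10 genes called in a test of a difference in change. The call was lost in most of the 12 fits that left out 1 library, where the value ranged from 0.92 to 1.33. It was also lost without the filter on low counts and with only the groups compared.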

How the results depend on the processing

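Counts of called members kept within 1.5 times under DESeq2, RLE factors and non-robust dispersions in all 20 comparisons, and no direction reversed. With the replicate block the count in macrophages went from 2 to 3 at 24 h in mono-culture, 1 to 2 at 24 h in co-culture and 5 to 6 between cultures at 0 h. There 22.2%, 19.7% and 19.5% of genes were called. In tumour cells it went from 0 to 2 at 24 h in mono-culture, 0 to 1 between cultures at 0 h and 0 to 1 for the difference of the 24 h changes. The shares of genes were 27.9%, 1.19% and 0.206%. Between cultures in macrophages at 6 h and 24 h the count went from 4 to 6 and 6 to 7, against 15.6% and 35.5% of genes. There the lowest correlation of same-number residuals was not over 0.1, so the pairing of the numbers is less certain. The block added Timp2 (adjusted p = 0.0128) and Mmp9 (-1.36, adjusted p = 0.0338) at 6 h and Mmp9 at 24 h (-1.51, adjusted p = 0.0468). The counts of the other 12 comparisons stayed equal. Libraries 002 and 003 alone gave 4 and 3 members in macrophages at 24 h in mono- and co-culture (2 and 1 over all libraries), against 17.4% and 15.4% of genes. In tumour cells they gave 1 at 6 h and 4 at 24 h in mono-culture and 3 at 24 h in co-culture, against 6.18%, 35.9% and 22.6%. Between cultures of tumour cells they gave 5, 4 and 5, against 15.8%, 9.16% and 24.1%. For the difference of the 24 h changes in tumour cells they gave 2, against 4.45%, and for the cell type difference 3, against 13.1%. Without a filter the count was 1 for macrophages at 24 h in mono-culture and 0 for the cell type difference, and with only the groups compared it was 1, 0 and, at 24 h in co-culture, 2. Leaving out 1 library gave 1 to 2 members for macrophages at 24 h in either culture, 2 to 5 between cultures at 6 h, 0 to 1 for tumour cells at 24 h in either culture and 0 to 2 for the cell type difference. The cause was not tested. The share of the other cell type's RNA in co-culture was 6.73%, 5.25% and 8.35% (macrophages) and 3.05%, 2.64% and 2.48% (tumour cells) with the fixed lists. With 20 markers it was 2.19%, 1.85% and 5.21% in macrophages and 0.622%, 0.648% and 0.461% in tumour cells. With 50 markers the tumour cell shares were 1.38%, 1.11% and 1.15%.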
